A study of Mus musculus with 9 samples.

Results

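Genes of DNA replication and deoxynucleotide supply were followed as a set of 40 in mouse embryonic stem (ES) cells, in ES cells depleted of Max and in primordial germ cells (PGCs). The set was named gene by gene, and a probe was taken as a member's where the RefSeq accession in the array file led to that symbol. All 40 genes were found among the 32450 genes or identifiers of the array and stand among the 20443 that were tested. They were well above background on all 9 arrays, so none entered through only the group where it was high. Of them, 36 had 1 probe and 4 had 2 probes, in which case the brighter probe was used.

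Before a cell divides, each replication origin is bound by the origin recognition complex (ORC), and CDC6 and CDT1 load the ring of MCM proteins that will unwind DNA. In S phase the kinase CDC7-DBF4 and the factors CDC45, GINS and MCM10 turn the loaded ring into a moving helicase. RPA coats the exposed strand, RFC places the clamp PCNA, and polymerases alpha, delta and epsilon copy the DNA from deoxynucleotides that ribonucleotide reductase and thymidylate enzymes supply. Many of these genes are known targets of E2F factors, and mouse ES cells are known for a short G1 phase and rapid division. Male mouse PGCs stop dividing in the fetal gonad and rest in a G1-like state until after birth.

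The PGCs (n = 3 arrays) came from male embryos at E13.5, on a MCH x C57BL6/J background with the germ cell reporter Oct4ΔPE-GFP, and were sorted as GFP-positive cells of the genital ridges. How many embryos a PGC sample pools is not stated. The Max knockdown cells (n = 3) were of VV3, a single male ES cell line of 129SV background in which the promoter of Vasa (Ddx4), a germ cell RNA helicase gene, drives the fluorescent protein Venus. They received siRNA against Max, whose protein pairs with MYC and with MGA on DNA, and only live, single, Venus-positive cells were collected after 3 days. The control cells (n = 3) were VV3 cells given the non-silencing AllStars siRNA and sorted as live single cells after 3 days with no Venus gate, so that siRNA and gate cannot be told apart. Both ES cell groups grew with LIF in medium of 14% KSR and 1% FBS, and 100 ng of RNA was labelled per sample in all 3 groups. PGCs also differ from the ES cells in strain, source and array slide, which cannot be told apart from the cell type.

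On each array 58.2% to 67.6% of 43020 spots passed the scanner's test for a signal well above background, none was saturated, and precision is limited by the number of arrays. Across genes, replicates correlated at 0.991 to 0.995. Levels below are log2 signals relative to the 75th percentile of the array and are given in the order of the replicate numbers, 1, 2 and 3 for PGCs and control cells and 1, 2 and 4 for Max knockdown cells. In PGCs Max itself read 3.77, 3.65 and 3.57, in Max knockdown cells 0.59, 0.83 and 1.13, and in control cells 2.84, 2.74 and 2.85, so every knockdown array was low (log2 -1.96, SE 0.14, adjusted p = 2.93e-05 against control, limma with Benjamini-Hochberg adjustment). Ddx4 was higher in Max knockdown cells than in control cells by 2.64 on the log2 scale, which the Venus gate selects for, and higher in PGCs than in control cells by 3.71. Pou5f1, the pluripotency gene that PGCs share, missed the threshold in PGCs (log2 -0.11) and in Max knockdown cells (log2 0.04). It is 1 of 6 listed markers of ES and germ cells, and others of them moved. Against control, 2 of the 6 rose and 3 fell in PGCs (log2 -3.05 to 1.91). In Max knockdown cells 2 rose and 1 fell (log2 -0.97 to 0.92).

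In Max knockdown cells most replication genes stayed close to their control level. Of the 40, 2 rose (Rpa2 and Pole), 8 fell (Cdt1, Pola2, Mcm10, Rrm2, Rfc3, Rrm1, Rfc1 and Pold1) and 30 did not pass the adjusted p threshold of 0.05. None of these changes reached 2-fold, where 6.32% of all genes were higher and 4.83% lower, and the 95% interval of 31 members (77.5%) lay within 0.6 of 0 on the log2 scale, as did that of 43.1% of all genes. Over all genes tested, 40.1% were called in this comparison (18.2% higher and 21.9% lower), against 25% of the members. The median difference was -0.06 over the members and -0.07 over all genes. The calls leaned on single libraries. Without Max knockdown 1 or without control 3 the falls numbered 3, without control 2 they numbered 4, and without Max knockdown 2 or Max knockdown 4 they numbered 5. The rises numbered 4 without PGC 2, whose spread enters the shared estimate. Of 22 alternative settings, 20 kept the calls of Cdt1, Mcm10 and Rpa2, and 8 kept that of Rrm2. With the ES cell arrays blocked as 3 pairs, a setting added after seeing the data, 4 members rose and 11 fell. Calls over all 20443 genes also grew in that setting, to 10728 from 8205. Background correction by normexp and spike-in scaling each ended all 10 calls. Spike-in scaling moved each difference by only 0.012, with Rpa2 at 0.63 and the members' median at -0.05, and with slide as a block as well it kept 6 of the 10 calls.

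In PGCs the same genes parted in both directions. Against control ES cells 11 rose, 16 fell and 13 did not pass, with 2 of the rises (Rpa2, Rpa3) and 5 of the falls (Gins2, Rrm2, Cdc6, Tk1, Cdt1) at least 2-fold. The background was high, since 75.6% of all genes were called (43.2% higher and 32.4% lower), against 67.5% of the members. At 2-fold it was 19.8% higher and 20.2% lower. The members' median difference was -0.02, beside 0.18 over all genes. Against Max knockdown cells 12 members rose, 14 fell and 14 did not pass, with a median of 0.10 beside 0.21 over all genes, of which 76.3% were called (44.9% higher and 31.4% lower, or 20.5% and 19.7% at 2-fold). The comparisons of PGCs with the 2 ES cell groups share the PGC arrays. No call was made in any of the 3 comparisons for 8 members (Mcm6, Mcm7, Cdc45, Orc2, Pcna, Rpa1, Prim2 and Lig1), which is 20%, beside 13% of all genes tested. In sorted bulk samples, fewer cells in S phase and less RNA per cell cannot be told apart.

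Signs in PGCs depend on what is held equal. With arrays scaled on spike-in transcripts instead of the 75th percentile, every gene's difference between PGCs and control cells moved by -0.95 on the log2 scale, and the median of all genes moved to -0.78, against 0.18 before. Under that scaling no member rose and 17 fell. Of the members that had risen, Cdc7, Gins3, Rfc3, Rfc4, Pola1, Pole, Prim1 and Fen1 turned to values under 0. Members above 0 without a call turned as well (Mcm6, Mcm7, Orc2, Cdc45, Gins1, Rfc1, Rpa1, Lig1 and Rrm1), with Mcm6 at -0.84, Rpa1 at -0.91 and Rrm1 at -0.88. Between PGCs and Max knockdown cells every difference moved by -0.97, no member rose and 16 fell. Rises of members in PGCs are therefore rises relative to the bulk of genes on the array. The size of the shift rests on ES cell arrays that differed by slide. The log2 75th percentile minus the spike-in mean was -0.60 and -0.63 in control 1 and 2 (slide 1) but -1.83 in control 3 (slide 2). It was -0.78 and -0.59 in Max knockdown 1 and 2 (slide 1) but -1.65 in Max knockdown 4 (slide 2). In PGCs 1, 2 and 3 it was -1.39, -2.35 and -2.18, and the cause was not tested. Falls could not turn with spike-in scaling, because it moved every difference in PGCs by the same negative amount.

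**Figure D1:**
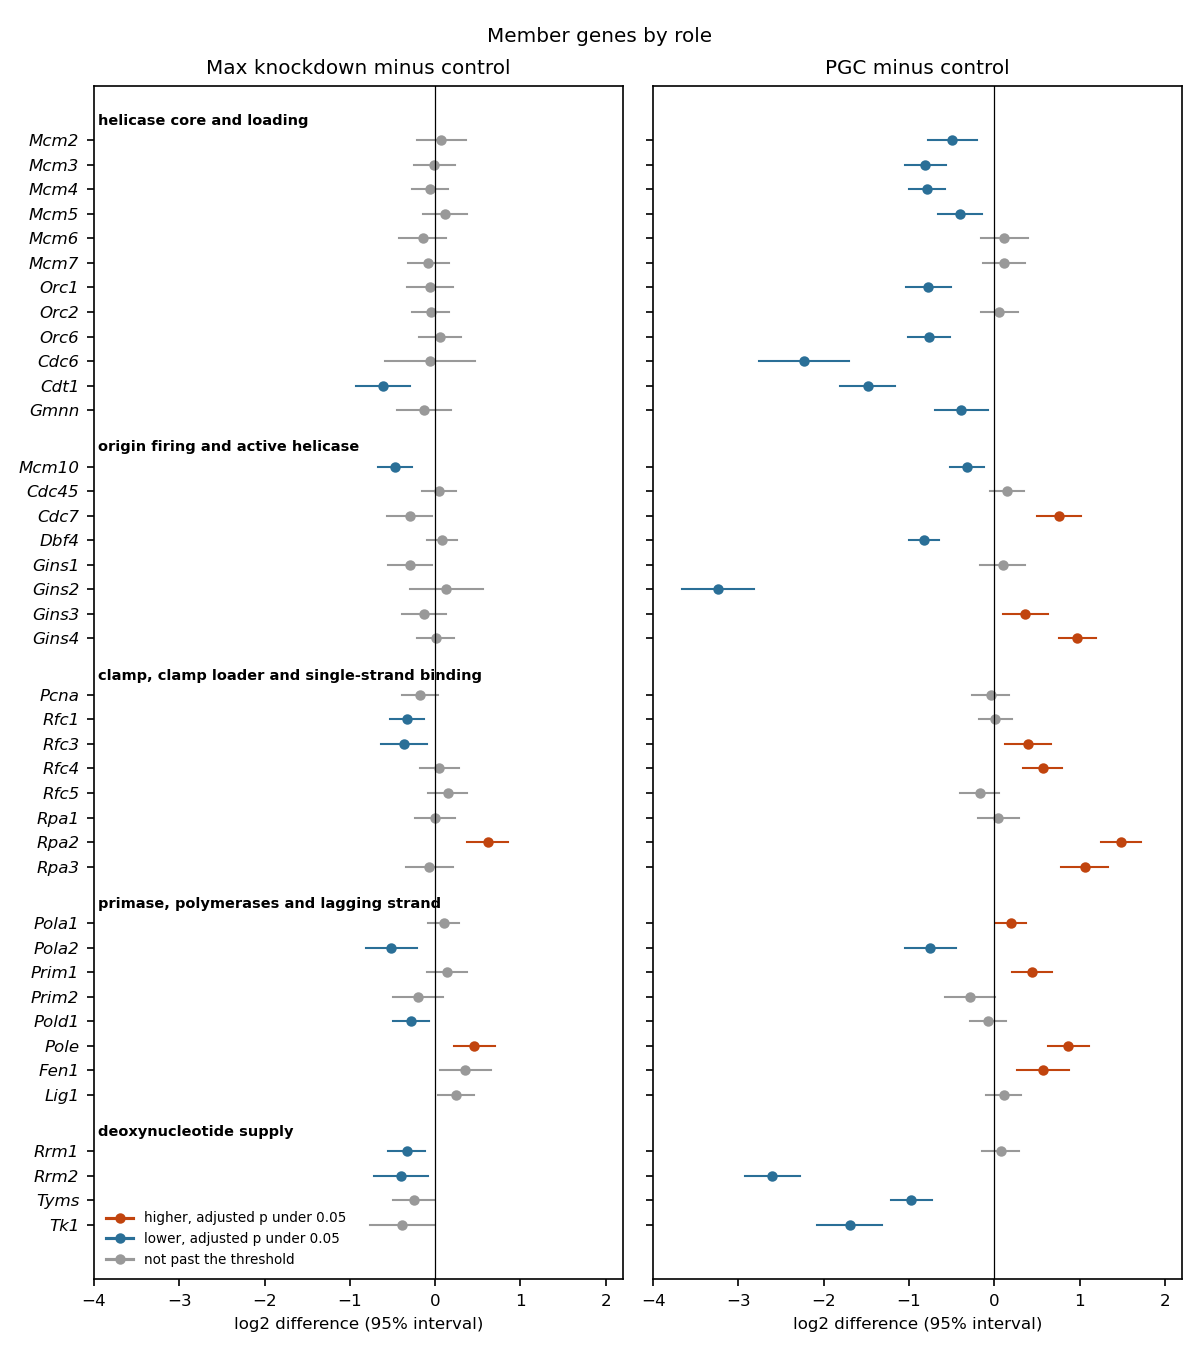
Difference of each of the 40 genes on the log2 scale (x axis) for Max knockdown minus control (left) and PGC minus control (right), with 95% intervals, 3 arrays a group, grouped by role. Left, 2 genes rose and 8 fell, all by less than 2-fold. Right, Gins2, Rrm2 and Cdc6 lay lowest and Rpa2 and Rpa3 highest, but with spike-in scaling every point of the right panel lies 0.95 further left.

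Genes that load the helicase fell or did not pass in PGCs. Of 12 members (6 MCM subunits, 3 ORC subunits, Cdc6, Cdt1 and geminin), 9 (75%) fell and none rose against control cells, beside 32.4% of all genes lower. Against Max knockdown cells 8 (66.7%) fell and none rose, beside 31.4% of all genes lower. In Max knockdown cells only Cdt1 (8.33%) fell against control, beside 21.9% of all genes lower. Promoters from RefSeq (assembly GRCm38.p6) are shown for 4 of the 12 members. They run from 250 bases before to 50 bases after a listed start, 5′ to 3′ on the gene's strand. For Cdc6 here and Pola2 below, the listed start lies inside the gene's RefSeq span, not at its edge. Cdt1 and Cdc6 are shown because they had the largest falls of the group. Mcm3 and Mcm6, partners in the same ring, are shown because they moved differently. Capitals mark letters searched on both strands, which are TTTGGCGC, TTTCGCGC, TTTGGCGG and TTTCCCGC as E2F-type letters, CACGTG, and CCAAT. The windows are Cdt1 chr8:122567765-122568064, plus strand, Cdc6 chr11:98907901-98908200, plus strand, Mcm3 chr1:20820263-20820562, minus strand, and Mcm6 chr1:128359656-128359955, minus strand.
Cdt1: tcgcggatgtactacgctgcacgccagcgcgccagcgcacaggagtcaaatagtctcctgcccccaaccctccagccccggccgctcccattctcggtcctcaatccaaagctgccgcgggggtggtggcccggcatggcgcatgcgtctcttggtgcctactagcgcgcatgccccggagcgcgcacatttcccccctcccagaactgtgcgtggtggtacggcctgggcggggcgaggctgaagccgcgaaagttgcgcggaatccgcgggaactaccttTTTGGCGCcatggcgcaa
Cdc6: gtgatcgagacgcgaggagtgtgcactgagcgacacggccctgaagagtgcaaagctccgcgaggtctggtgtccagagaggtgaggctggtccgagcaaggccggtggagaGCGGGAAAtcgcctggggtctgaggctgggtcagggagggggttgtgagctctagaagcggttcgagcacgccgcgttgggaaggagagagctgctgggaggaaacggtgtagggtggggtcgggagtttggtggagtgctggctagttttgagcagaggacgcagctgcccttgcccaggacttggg
Mcm3: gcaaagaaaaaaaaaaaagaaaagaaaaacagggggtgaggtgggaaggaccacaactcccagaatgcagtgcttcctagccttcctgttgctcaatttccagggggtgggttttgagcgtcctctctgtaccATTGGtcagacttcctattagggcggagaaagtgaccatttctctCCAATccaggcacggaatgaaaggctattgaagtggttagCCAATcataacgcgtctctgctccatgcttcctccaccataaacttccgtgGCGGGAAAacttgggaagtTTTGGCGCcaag
Mcm6: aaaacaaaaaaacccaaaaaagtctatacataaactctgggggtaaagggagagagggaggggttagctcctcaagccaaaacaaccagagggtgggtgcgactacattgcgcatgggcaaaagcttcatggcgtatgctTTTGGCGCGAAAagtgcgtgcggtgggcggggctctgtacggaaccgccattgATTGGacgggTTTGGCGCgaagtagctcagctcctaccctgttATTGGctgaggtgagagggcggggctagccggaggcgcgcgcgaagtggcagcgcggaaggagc

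Cdt1, the licensing factor that brings MCM rings to origins, had values of 3.49, 4.02 and 3.70 in PGCs, 4.59, 4.62 and 4.62 in Max knockdown cells and 5.06, 5.22 and 5.38 in control cells. The groups did not overlap, with PGCs lowest, Max knockdown cells between and control cells highest. It fell 2.8-fold in PGCs against control (log2 -1.48, SE 0.14, adjusted p = 1.53e-05), 1.53-fold in Max knockdown cells against control (log2 -0.61, adjusted p = 0.00873) and 1.83-fold in PGCs against Max knockdown cells (log2 -0.87, adjusted p = 0.000428). Cdc6, its partner in loading, stood at -3.25, -2.73 and -3.25 in PGCs, -0.91, -0.57 and -1.24 in Max knockdown cells and -1.02, -0.47 and -1.06 in control cells. All PGC arrays lay far below both ES cell groups, which overlapped each other. The fall was 4.68-fold against control (log2 -2.23, SE 0.23, adjusted p = 2.85e-05) and 4.5-fold against Max knockdown cells, whereas Max knockdown cells against control gave -0.06 (interval -0.59 to 0.47). A second, dimmer Cdc6 probe gave -1.99 in PGCs against control and 0.53 in Max knockdown cells against control, so the probes disagree by over 1.5-fold on the knockdown. Geminin (Gmnn), which binds CDT1 and blocks reloading, fell by less in PGCs (log2 -0.39, adjusted p = 0.0308), a call that 8 of 20 alternatives ended.

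The 6 MCM genes encode subunits of 1 ring, yet they did not move as a block in PGCs. Mcm3 stood at 4.37, 4.54 and 4.33 in PGCs, 5.21, 5.16 and 5.26 in Max knockdown cells and 5.09, 5.17 and 5.40 in control cells. Mcm4 stood at 4.40, 4.51 and 4.27 in PGCs, 5.18, 5.06 and 5.12 in Max knockdown cells and 5.08, 5.20 and 5.26 in control cells. In both genes all PGC arrays were below all ES cell arrays, with falls against control of 1.75-fold (log2 -0.81, adjusted p = 0.000114) for Mcm3 and 1.72-fold (log2 -0.79, adjusted p = 6.26e-05) for Mcm4. Mcm2 and Mcm5 fell by less (log2 -0.49, adjusted p = 0.00637, and log2 -0.40, adjusted p = 0.0104). Mcm6 stood at 6.60, 6.86 and 6.67 in PGCs, 6.46, 6.34 and 6.55 in Max knockdown cells and 6.41, 6.60 and 6.78 in control cells, and the PGC arrays overlapped the control arrays. Its difference of 0.11 (interval -0.16 to 0.39) and that of Mcm7, 0.11 (interval -0.13 to 0.36), missed the threshold. The 6 differences in Max knockdown cells all lay between -0.15 and 0.11, and none passed.

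Among ORC subunits, Orc1, the ATPase whose protein is known to turn over in the cell cycle, stood at -0.76, -0.59 and -0.87 in PGCs, -0.01, 0.12 and -0.19 in Max knockdown cells and 0.08, 0.11 and -0.09 in control cells. PGC arrays were lowest without overlap, and the ES cell groups overlapped. Orc1 fell 1.71-fold against control (log2 -0.77, adjusted p = 0.000295), and Orc6 fell 1.7-fold (log2 -0.76, adjusted p = 0.000193), while Orc2 gave 0.06 and did not pass. No ORC gene passed in Max knockdown cells, with differences of -0.06, -0.05 and 0.05 for Orc1, Orc2 and Orc6.

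The 8 genes of origin firing and the active helicase split in PGCs, with 3 higher, 3 lower and 2 not passing against control. Max knockdown cells had 1 fall and 7 genes that did not pass, and against Max knockdown cells 4 were higher and 2 lower in PGCs. The shares called were 75%, 12.5% and 75% in that order, beside 75.6%, 40.1% and 76.3% of all genes. Gins2, a GINS subunit, had the largest fall of all 40 members. It stood at -1.24, -0.78 and -1.21 in PGCs, 2.07, 2.36 and 2.47 in Max knockdown cells and 1.85, 2.26 and 2.39 in control cells. The PGC arrays lay well below every ES cell array, and the ES cell groups overlapped. The fall was 9.47-fold against control (log2 -3.24, SE 0.18, adjusted p = 7.09e-07) and 10.4-fold against Max knockdown cells (log2 -3.38, adjusted p = 5.98e-07). No promoter of Gins2 is in the table used.

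The other GINS subunits, which assemble in equal numbers with GINS2, did not follow it. Gins4 stood at 2.38, 2.52 and 2.40 in PGCs, 1.35, 1.51 and 1.55 in Max knockdown cells and 1.33, 1.52 and 1.53 in control cells. Here the PGC arrays were the highest without overlap, and the gene rose 1.96-fold against control (log2 0.97, adjusted p = 1.94e-05), but by 0.02 with spike-in scaling. Gins3 rose by 0.36 (adjusted p = 0.0182), a call that 6 of 20 alternatives ended and a sign that turned with spike-in scaling (-0.59), and Gins1 gave 0.10 and did not pass. No GINS gene passed in Max knockdown cells, and Gins2 gave 0.13 (interval -0.29 to 0.56).

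The kinase that triggers firing showed a similar split. Dbf4, its regulatory subunit, stood at 0.35, 0.27 and 0.23 in PGCs, 1.24, 1.17 and 1.13 in Max knockdown cells and 1.09, 1.15 and 1.07 in control cells. PGC arrays were lowest without overlap, and Dbf4 fell 1.77-fold against control (log2 -0.82, SE 0.08, adjusted p = 1.52e-05) and 1.86-fold against Max knockdown cells. Cdc7, the catalytic subunit, stood at -1.75, -1.66 and -1.73 in PGCs, -2.64, -2.89 and -2.79 in Max knockdown cells and -2.54, -2.62 and -2.25 in control cells. Its PGC arrays were the highest without overlap, with a rise of 1.69-fold against control (log2 0.76, adjusted p = 0.000305) and of 2.08-fold against Max knockdown cells (log2 1.06, adjusted p = 3.77e-05), values that became -0.19 and 0.09 with spike-in scaling. A second Cdc7 probe gave 1.05 and 1.20 in these comparisons. The Max knockdown arrays of Cdc7 did not overlap the control arrays either, but the difference of -0.30 missed the threshold (adjusted p = 0.0685).

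Mcm10, which helps activate the helicase and recruit polymerase alpha, fell in both groups. It stood at 3.80, 3.87 and 3.78 in PGCs, 3.58, 3.66 and 3.76 in Max knockdown cells and 4.06, 4.09 and 4.25 in control cells. Control arrays were highest without overlap, and Max knockdown arrays lowest. The fall was 1.38-fold in Max knockdown cells (log2 -0.47, SE 0.09, adjusted p = 0.00333) and 1.25-fold in PGCs (log2 -0.32, adjusted p = 0.00911), both against the same control arrays, and PGCs against Max knockdown cells did not pass (log2 0.15). Cdc45, a helicase partner, gave 0.15 in PGCs and 0.04 in Max knockdown cells against control and did not pass in either.

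**Figure D2:**
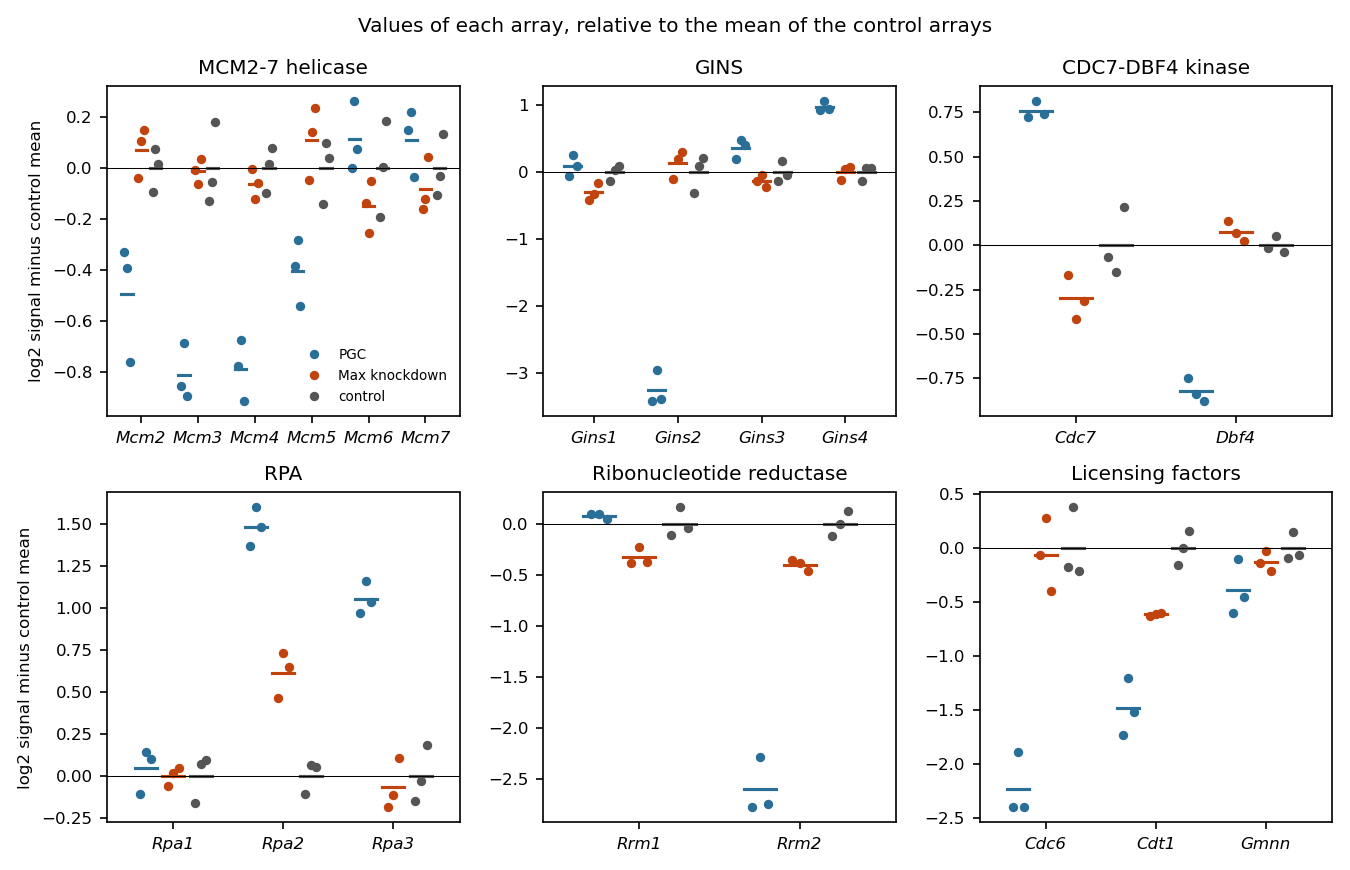
Log2 signal of each array minus the mean of the control arrays (y axis, scales differ by panel) for genes of 6 complexes or steps, with points for the 3 arrays of PGCs, Max knockdown cells and control cells and bars for the means. In PGCs, Gins2, Dbf4, Rrm2, Cdc6, Mcm3 and Mcm4 lay below all ES cell arrays, while Gins4, Cdc7, Rpa2 and Rpa3 lay above them and Mcm6, Mcm7 and Rpa1 overlapped control. With spike-in scaling the mean of the PGC points lies 0.95 lower for every gene, and that of Cdc7 turns to -0.19.

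Of the 8 genes of the clamp, its loader and single-strand binding, 4 rose and none fell in PGCs against control, and against Max knockdown cells 5 rose and 1 (Rfc5) fell. Max knockdown cells had 1 rise (Rpa2) and 2 falls (Rfc1, Rfc3). The shares called were 50%, 75% and 37.5% in that order, beside 75.6%, 76.3% and 40.1% of all genes. In PGCs against control, 43.2% of all genes were higher and 32.4% lower. The promoter of Rpa2 is shown because Rpa2, a subunit of the RPA trimer, had the largest rise of all members in both comparisons with control; it lies at chr4:132768110-132768409, plus strand, and the capitals mark CCAAT read on the other strand.
Rpa2: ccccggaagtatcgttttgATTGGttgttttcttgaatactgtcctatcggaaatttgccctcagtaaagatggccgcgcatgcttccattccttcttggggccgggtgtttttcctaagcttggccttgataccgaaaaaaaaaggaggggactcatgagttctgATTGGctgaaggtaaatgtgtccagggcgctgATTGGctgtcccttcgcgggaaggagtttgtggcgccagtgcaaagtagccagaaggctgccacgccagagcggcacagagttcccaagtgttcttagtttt

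Rpa2 stood at 2.68, 2.91 and 2.79 in PGCs, 1.77, 2.04 and 1.95 in Max knockdown cells and 1.20, 1.37 and 1.36 in control cells. The groups did not overlap, with PGCs highest, Max knockdown cells between and control cells lowest. It rose 2.8-fold in PGCs (log2 1.49, SE 0.10, adjusted p = 2.45e-06) and 1.53-fold in Max knockdown cells (log2 0.61, SE 0.10, adjusted p = 0.00209), both against control, and 1.83-fold in PGCs against Max knockdown cells (log2 0.87, adjusted p = 7.08e-05). With spike-in scaling the differences were 0.53, 0.63 and -0.10, so the sign of the last turned. Rpa3, the smallest RPA subunit, stood at 4.42, 4.62 and 4.49 in PGCs, 3.26, 3.34 and 3.56 in Max knockdown cells and 3.30, 3.42 and 3.64 in control cells. Only the PGC arrays stood apart, with a rise of 2.08-fold against control (log2 1.06, adjusted p = 4.94e-05) and 2.18-fold against Max knockdown cells, or 0.10 and 0.16 on the log2 scale with spike-in scaling. Rpa1, the main DNA-binding subunit, overlapped in all groups, with 0.04 in PGCs and -0.00 in Max knockdown cells against control (intervals -0.19 to 0.28 and -0.24 to 0.24).

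Pcna, the sliding clamp, differed little, with -0.04 in PGCs (interval -0.26 to 0.17) and -0.18 in Max knockdown cells (interval -0.39 to 0.04) against control. Its probe may also read the 2 pseudogenes named after it. Among loader subunits, Rfc3 stood at -0.14, 0.23 and 0.04 in PGCs, -0.77, -0.61 and -0.77 in Max knockdown cells and -0.50, -0.28 and -0.27 in control cells. The 3 groups did not overlap, with PGCs highest and Max knockdown cells lowest. Rfc3 rose in PGCs against control (log2 0.39, adjusted p = 0.013) and fell in Max knockdown cells against control (log2 -0.36, adjusted p = 0.0357), but the rise became -0.56 with spike-in scaling, and 10 of 22 alternatives ended the fall. Rfc4 stood at 4.54, 4.79 and 4.71 in PGCs, 4.31, 4.07 and 4.12 in Max knockdown cells and 4.05, 4.13 and 4.16 in control cells, with only the PGC arrays apart (log2 0.57, adjusted p = 0.000788, or -0.39 with spike-in scaling), and its second probe gave 0.92. Rfc1, the large loader subunit, fell 1.25-fold in Max knockdown cells (log2 -0.33, adjusted p = 0.0161) and gave 0.01 in PGCs against control. Rfc5 passed only between PGCs and Max knockdown cells (log2 -0.32, adjusted p = 0.0166).

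Polymerase genes went both ways. Against control, 4 of 8 genes of primase, polymerases and lagging strand work rose in PGCs and 1 fell, and in Max knockdown cells 1 rose and 2 fell. In PGCs against Max knockdown cells 2 rose and none fell. The shares called were 62.5%, 37.5% and 25% in that order, beside 75.6%, 40.1% and 76.3% of all genes. The promoter of Pola2, the accessory subunit of polymerase alpha, is shown because this gene fell in both comparisons with control and its window holds CACGTG, the letters that MYC-MAX dimers are known to bind; it lies at chr19:5964157-5964456, minus strand, with TTTGGCGG also in capitals.
Pola2: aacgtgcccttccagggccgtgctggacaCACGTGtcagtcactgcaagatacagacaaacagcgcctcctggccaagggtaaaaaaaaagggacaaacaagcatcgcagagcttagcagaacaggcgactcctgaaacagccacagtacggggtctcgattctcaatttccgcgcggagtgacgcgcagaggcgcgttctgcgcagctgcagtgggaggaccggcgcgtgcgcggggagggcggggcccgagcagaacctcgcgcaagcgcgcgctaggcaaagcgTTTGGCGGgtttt

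Pola2 stood at -1.83, -2.0 and -2.28 in PGCs, -1.94, -1.72 and -1.74 in Max knockdown cells and -1.35, -1.36 and -1.14 in control cells. Control arrays were highest without overlap, and PGC and Max knockdown arrays overlapped. It fell 1.68-fold in PGCs (log2 -0.75, SE 0.13, adjusted p = 0.000796) and 1.43-fold in Max knockdown cells (log2 -0.51, SE 0.13, adjusted p = 0.0148) against control, though the second value was 0.13 with normexp. Pola1, the catalytic subunit, gave 0.19 in PGCs, a call that 14 of 20 alternatives ended and that spike-in scaling turned (-0.76). Prim1, the primase that makes the RNA primer, rose in PGCs (log2 0.44, adjusted p = 0.00362), or -0.51 with spike-in scaling, and Prim2, its partner, gave -0.28 and did not pass.

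Pole, the catalytic subunit of the polymerase of the leading strand, stood at 4.91, 4.80 and 4.77 in PGCs, 4.46, 4.29 and 4.51 in Max knockdown cells and 3.83, 3.92 and 4.13 in control cells. As for Rpa2, the groups did not overlap and stood in the order of PGCs, Max knockdown cells and control cells from high to low. Pole rose 1.83-fold in PGCs (log2 0.87, SE 0.11, adjusted p = 7.9e-05) and 1.38-fold in Max knockdown cells (log2 0.46, SE 0.11, adjusted p = 0.0089) against control. The first value became -0.09 with spike-in scaling, and a second Pole probe was not well above background in PGCs or Max knockdown cells and gave no value. Pold1, the catalytic subunit of polymerase delta, fell in Max knockdown cells (log2 -0.28, adjusted p = 0.0358), a call that 10 of 22 alternatives ended, and gave -0.07 in PGCs.

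Fen1, the nuclease that trims Okazaki fragments, stood at 3.65, 4.11 and 3.87 in PGCs, 3.73, 3.77 and 3.48 in Max knockdown cells and 3.32, 3.38 and 3.22 in control cells. Both PGC and Max knockdown arrays lay above the control arrays, with a rise of 1.49-fold in PGCs (log2 0.57, adjusted p = 0.00391, or -0.38 with spike-in scaling) and a difference of 0.36 in Max knockdown cells that missed the threshold (adjusted p = 0.0627). Lig1, which seals the fragments, gave 0.11 in PGCs and 0.25 in Max knockdown cells against control and passed in neither.

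The 4 genes of deoxynucleotide supply were all lower in Max knockdown cells by their means, with 2 past the threshold. In PGCs against control 3 fell. That is 50% and 75%, beside 21.9% and 32.4% of all genes lower, and 40.1% and 75.6% called in either direction. Rrm2, the small subunit of ribonucleotide reductase that is made in S phase, stood at 2.36, 2.86 and 2.39 in PGCs, 4.79, 4.75 and 4.67 in Max knockdown cells and 5.02, 5.13 and 5.26 in control cells. PGC arrays were far below the rest, and Max knockdown arrays lay just below the control arrays. It fell 6.07-fold in PGCs against control (log2 -2.60, SE 0.14, adjusted p = 5.04e-07), 4.6-fold in PGCs against Max knockdown cells (log2 -2.20, adjusted p = 1.43e-06) and 1.32-fold in Max knockdown cells against control (log2 -0.40, adjusted p = 0.0491), the last a call that 14 of 22 alternatives ended.

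Rrm1, the large subunit of the same enzyme, stood at 3.11, 3.11 and 3.06 in PGCs, 2.63, 2.79 and 2.64 in Max knockdown cells and 2.91, 3.18 and 2.97 in control cells. The PGC and control arrays overlapped, and the Max knockdown arrays lay below both. Rrm1 fell 1.26-fold in Max knockdown cells against control (log2 -0.33, SE 0.09, adjusted p = 0.0232), a call that 9 of 22 alternatives ended, gave 0.07 in PGCs against control (interval -0.14 to 0.29) and rose in PGCs against Max knockdown cells (log2 0.41, adjusted p = 0.0039, or -0.56 with spike-in scaling).

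Tk1, the thymidine kinase of the salvage path, stood at 1.22, 1.84 and 1.26 in PGCs, 2.62, 2.78 and 2.84 in Max knockdown cells and 3.02, 3.23 and 3.15 in control cells. Its PGC arrays were lowest and its control arrays highest, without overlap of any group. Tk1 fell 3.24-fold in PGCs against control (log2 -1.70, SE 0.16, adjusted p = 1.87e-05) and 2.48-fold in PGCs against Max knockdown cells, and its difference of -0.39 in Max knockdown cells missed the threshold (adjusted p = 0.0938). Tyms, the thymidylate synthase of the de novo path, stood at -3.05, -3.12 and -2.95 in PGCs, -2.47, -2.28 and -2.21 in Max knockdown cells and -1.96, -2.20 and -2.04 in control cells. It was ordered in the same way, and fell 1.97-fold in PGCs against control (log2 -0.98, adjusted p = 3.68e-05), with -0.25 in Max knockdown cells (adjusted p = 0.0897). The Tyms probe may also read 1 pseudogene named after it.

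Differences between partners are free of any scaling that subtracts 1 value per array, because both genes are read on the same array. They are not free of quantile normalization or normexp. Pairs were chosen here after their values were seen, as the members of a complex with the highest and lowest change in PGCs, and were not tested. Against control cells, the log2 difference between Gins4 and Gins2 was 4.22 higher in PGCs, which is 18.6-fold, and changed by -0.13 in Max knockdown cells. Between Rrm1 and Rrm2 it was 2.68 higher in PGCs (6.39-fold) and 0.07 higher in Max knockdown cells. Between Cdc7 and Dbf4 it was 1.58 higher in PGCs (2.99-fold) and changed by -0.38 in Max knockdown cells. Rpa2 against Rpa1 gave 1.44 in PGCs (2.72-fold) and 0.61 in Max knockdown cells, and Mcm6 against Mcm3 gave 0.92 (1.9-fold) and -0.14. In each of these pairs the PGC arrays did not overlap the control arrays. Choosing the pairs by their change in PGCs makes this likely in advance, so it lends no support. These values show unequal change of partners, not which partner kept its level.

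Slide divided the ES cell arrays. Slide 1 held Max knockdown 1 and 2 with control 1 and 2, and slide 2 held Max knockdown 4 with control 3. The median of the 40 differences between Max knockdown and control was -0.04 within slide 1 and -0.12 within slide 2, beside -0.07 and -0.06 over all genes. Within slide 1, Cdt1 differed by -0.54 and Rpa2 by 0.62, and within slide 2 Cdt1 differed by -0.75 and Rpa2 by 0.60. PGC 1 lay on slide 3 and PGC 2 and PGC 3 on slide 4, with no ES cell array beside them.

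**Figure D3:**
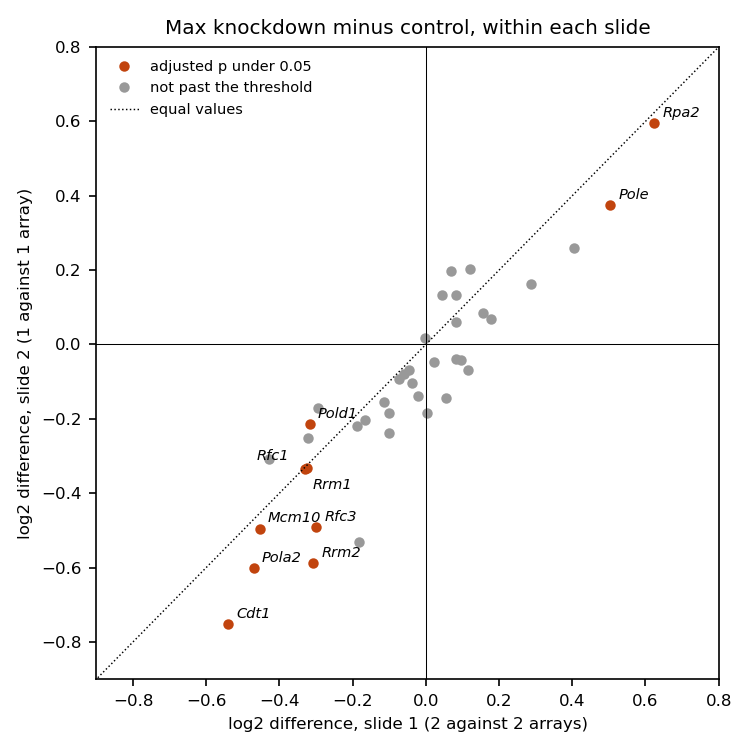
Log2 difference between Max knockdown and control for each of the 40 genes within slide 2 (y axis, 1 array against 1) against that within slide 1 (x axis, 2 arrays against 2), with genes past the threshold in colour and a dotted line of equal values. Rpa2 lies at 0.62 and 0.60 and Cdt1 at -0.54 and -0.75, and the calls were made on these same arrays.

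Other genes of the same processes, listed by function with earlier results known, were counted beside the members. Of 35 other replication genes, 4 rose and 7 fell in Max knockdown cells, and 14 rose and 15 fell in PGCs, against control. That is 31.4% and 82.9% called, beside 40.1% and 75.6% of all genes. Pold2 and Pold4, accessory subunits of polymerase delta, fell in Max knockdown cells (log2 -1.01, adjusted p = 0.000766, and log2 -0.64, adjusted p = 0.00107), and so did Ssrp1, a subunit of the histone chaperone FACT (log2 -0.71, adjusted p = 0.000475). In PGCs Pole2, the accessory subunit of polymerase epsilon, fell 6.42-fold against control (log2 -2.68, SE 0.11, adjusted p = 1.35e-07) while its partner Pole rose, a change of 3.55 in their log2 difference (11.7-fold). Ticrr, which brings CDC45 to origins, fell 3.05-fold (log2 -1.61, adjusted p = 1.27e-06), and Pole3, a histone-fold subunit of polymerase epsilon, rose 2.47-fold (log2 1.31, adjusted p = 2.56e-06). Against Max knockdown cells, 13 of these genes rose and 14 fell in PGCs, or 77.1% called beside 76.3% of all genes. Pole2 was at -2.44, Ticrr at -2.19 and Pole3 at 1.32.

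Of 20 other nucleotide genes tested, none rose and 7 fell in Max knockdown cells, with a median difference of -0.23. The purine synthesis enzymes Paics (log2 -0.76, adjusted p = 0.000319) and Gart (log2 -0.79, adjusted p = 0.000861) and the guanine nucleotide enzyme Impdh2 (log2 -0.44, adjusted p = 0.00435) had the smallest adjusted p. The count is 35% called, beside 40.1% of all genes. In PGCs 7 rose and 7 fell against control, or 70% called beside 75.6% of all genes. Shmt1, a folate enzyme, rose 4.04-fold (log2 2.01, adjusted p = 1.54e-07), and Samhd1, which degrades deoxynucleotides, rose 2.99-fold (log2 1.58, adjusted p = 3.85e-07). Against Max knockdown cells 10 rose and 6 fell in PGCs, or 80% called beside 76.3% of all genes. Shmt1 was at 1.81, Samhd1 at 1.59 and the CTP synthase Ctps at 1.42.

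Regulators of S phase entry were called more often in PGCs (76.9%) than in Max knockdown cells (26.9%), as were all genes (75.6% and 40.1%). Of 26 tested, 5 rose and 15 fell in PGCs, and 2 rose and 5 fell in Max knockdown cells, against control. Rb1, which restrains E2F factors, rose 5.06-fold in PGCs (log2 2.34, adjusted p = 2.92e-07), the CDK inhibitor gene Cdkn2a rose 5.85-fold (log2 2.55, adjusted p = 3.48e-07) and the cyclin gene Ccnd1 fell 6.92-fold (log2 -2.79, adjusted p = 7.6e-07). In Max knockdown cells the repressor E2f7 and the CDK inhibitor Cdkn1a fell (log2 -0.88, adjusted p = 0.000631, and log2 -0.54, adjusted p = 0.000683), and the CDK inhibitor Cdkn2d rose (log2 0.84, adjusted p = 0.00115). Against Max knockdown cells 10 rose and 13 fell in PGCs, or 88.5% called beside 76.3% of all genes. Rb1 was at 2.31, Cdkn2a at 2.16 and Ccnd1 at -2.53.

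Of 25 mitosis genes tested, 7 rose and 12 fell in PGCs, and none rose and 5 fell in Max knockdown cells, against control. That is 76% and 20% called, beside 75.6% and 40.1% of all genes. The phosphatase gene Cdc25c and the kinase gene Plk1 fell in PGCs (log2 -1.74, adjusted p = 1.86e-06, and log2 -1.06, adjusted p = 2.75e-05), and Nuf2, of the kinetochore, rose (log2 1.08, adjusted p = 2.09e-05, a rise that is 0.95 smaller with spike-in scaling). The mitosis genes Pttg1, Cdc25c and Plk1 fell in Max knockdown cells by 0.33, 0.39 and 0.34 on the log2 scale. In PGCs against Max knockdown cells 8 rose and 10 fell, or 72% called beside 76.3% of all genes. Pttg1, the securin gene, was at 1.07, Cdc25c at -1.35 and Kif23, a cytokinesis motor, at -1.47.

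**Figure D4:**
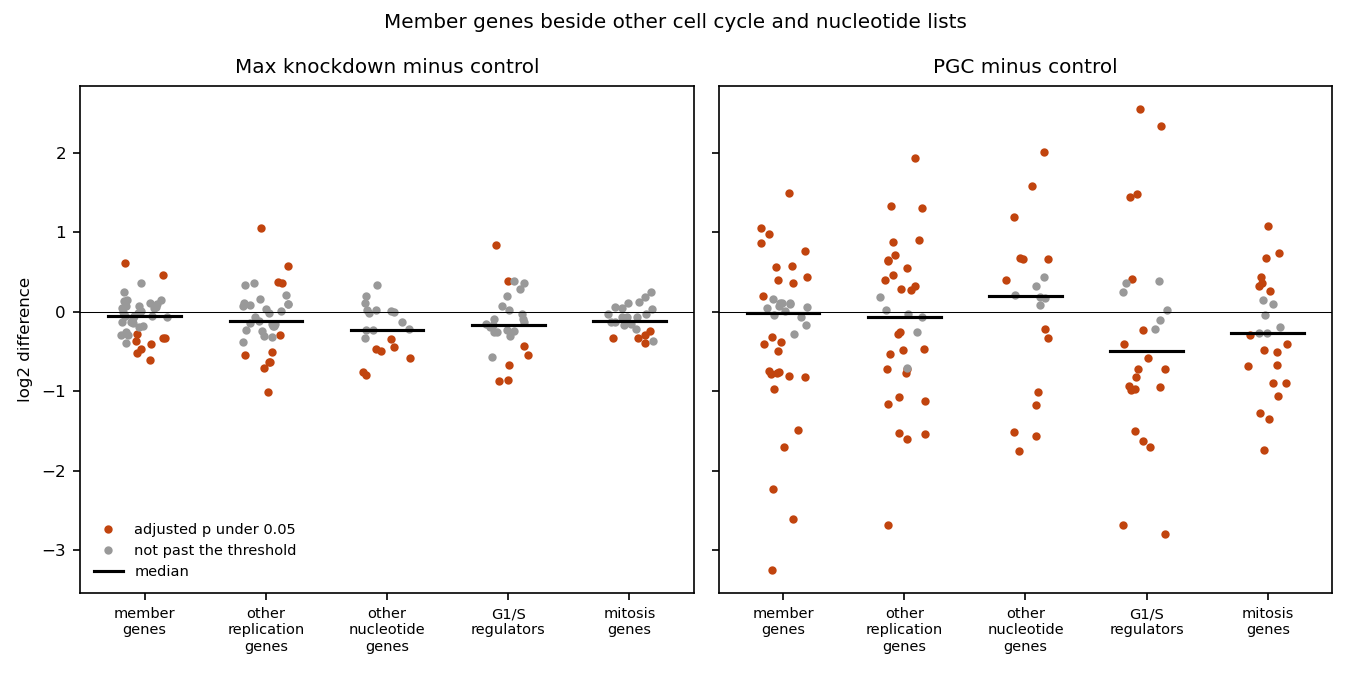
Log2 difference of each tested gene (points) for Max knockdown minus control (left) and PGC minus control (right) in the 40 members and 4 lists of related genes, with genes past the threshold in colour and a bar at each list's median. Left, nearly all points lie within 1 of 0. Right, points spread on both sides of 0 in every list, and with spike-in scaling each lies 0.95 lower.

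Promoters of 33 members were in the RefSeq table, 5 of them with several starts. An E2F-type string of the 4 given above lay in 14 of 33 members, or 42.4%, against 2.7% of 27025 genes. By call in PGCs against control, it lay in 6 of 13 matched members that fell, 3 of 9 that rose and 5 of 11 that did not pass, so it was found on every side, as it was in Mcm3 and Mcm6. CACGTG lay in 6 of 33, or 18.2%, against 8.1% of genes. By call in Max knockdown cells against control, it lay in 2 of 8 matched members that fell (Pola2 and Rfc1). It also lay in 4 of 24 that did not pass (Fen1, Lig1, Rpa1 and Tyms) and in 0 of 1 that rose. CCAAT lay in 21 of 33, or 63.6%, against 41.1% of genes. The strings can overlap, as in Mcm6, and a match is a description of letters, not of binding.

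Markers of other cells that a sort could hold were read as the sum of linear signals over a list, in units of the array's 75th percentile. The sum over 12 gonadal somatic markers was 3.07 to 5.72 in PGCs, 2.46 to 3.11 in Max knockdown cells and 2.98 to 3.71 in control cells. These sums hide opposite moves, and none was taken without Wt1. Wt1, the brightest of the 12 in control cells, had log2 levels of 0.60, 0.89 and 1.37 there and -0.03, 0.30 and -0.39 in PGCs. Dhh went the other way, with -1.29, -1.61 and -1.84 in control cells and 0.43, 1.01 and 0.04 in PGCs. Against control, 5 of 9 tested rose and 2 fell in PGCs, and none rose and 2 fell in Max knockdown cells. The Sertoli cell gene Amh was above background on all 3 PGC arrays and on no ES cell array, as was the globin gene Hbb-bt. For 9 fibroblast markers the sums were 48.9 to 50.9 in PGCs, 33.3 to 42.6 in Max knockdown cells and 41.0 to 42.4 in control cells, most of it from Fn1, the fibronectin gene. Without Fn1 the sums were 1.15 to 1.43 in PGCs, 1.22 to 1.35 in Max knockdown cells and 3.84 to 5.99 in control cells, so control cells were highest without overlap. Acta2 and Col1a2, of smooth muscle actin and collagen, were 14.4-fold and 5.14-fold lower in Max knockdown cells than in control cells. There were 2 rises and 5 falls among 7 tested in PGCs and 5 falls in Max knockdown cells. Postn was above background in no group, and Lum in no ES cell array. For 9 blood and endothelial markers the sums were 1.05 to 2.48 in PGCs, 0.86 to 1.20 in Max knockdown cells and 0.617 to 0.904 in control cells, with 2 rises and 3 falls among 5 tested in PGCs and 2 rises and 1 fall in Max knockdown cells, and Emcn was above background in none. The 8 germ cell markers summed to 99.4 to 120 in PGCs, 34.9 to 39.7 in Max knockdown cells and 5.63 to 5.68 in control cells, and all 8 rose in PGCs and 6 in Max knockdown cells. The part of other cells in the results above was not tested.

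**Figure D5:**
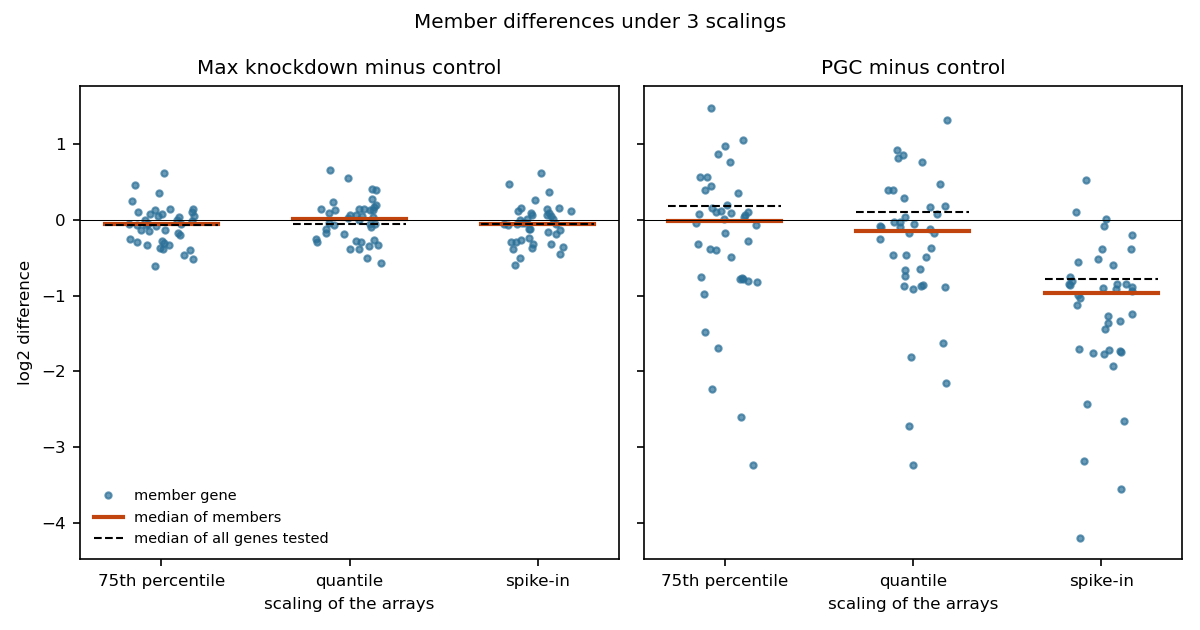
Log2 difference of each of the 40 genes (points) under 3 scalings of the arrays (x axis) for Max knockdown minus control (left) and PGC minus control (right), with the median of the members (solid) and of all genes tested (dashed). Left, both medians stay near 0. Right, spike-in scaling puts the members' median at -0.97 and that of all genes at -0.78, against -0.02 and 0.18 with the 75th percentile.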

How the data were processed

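RNA of 3 groups was measured on 9 Agilent arrays with 1 colour, 3 per group, grouped by their titles. The design text calls replicates biological but does not say what their numbers mark. The deposited scanner files hold Cy3 intensity, which Agilent Feature Extraction 10.7.3.1 had background-subtracted and detrended, per the file headers. The deposited value table holds log2 values of unstated scale. They matched probe-centred scanner values (r 0.99994 to 0.99999 across probes), with column medians of 0, 0.34 and 0.39 in PGCs, -0.12, 0 and 0 in Max knockdown cells and -0.02, -0.07 and 0 in control cells, and whether further steps were applied is unknown.

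Here spots of a probe were averaged, log2 of the processed signal was taken and the array's 75th percentile subtracted. Control spots and 65 flagged probes of 39429 were left out. Of 39364 probes used, 26012 were named by RefSeq accession from a gene table of GRCm38.p6 (the array header gives mm9, so its gene coordinates are not printed), and a gene's brightest probe by mean over all arrays was kept. Testing required a signal well above background on each array of at least 1 group. One fit of all 9 arrays (limma 3.58.1, R 4.3.3, lmFit and eBayes) gave log2 differences, standard errors (SE) and Benjamini-Hochberg adjusted p over 20443 genes, of which 14444 have a symbol. An exact permutation test of 1 gene in 3 against 3 arrays cannot reach 0.05, so the calls depend on pooling the spread over genes.

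Members and lists were chosen with earlier results of these data known. Per-array values were given for the 6 largest rises and falls of a comparison among called members and for the smallest adjusted p of each role, with some added after their values were seen (Mcm3, Mcm4, Mcm6 and Orc1). From each other list the 3 smallest adjusted p were named, except for a gene that is not reported here. Promoters of Cdt1 and Rpa2 were chosen by a rule on the largest rise and fall, and the others after their values were seen. Alternatives were normexp (offset 50, on median signals because the files used hold no mean signal), quantile normalization, spike-in scaling (7 of 10 probes), the deposited table, no filter on dim genes or one over all 9 arrays, averaging a gene's probes, fits of 2 groups, a block for slide, for replicate number or for 3 pairs of ES cell arrays, and leave-one-out fits.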

Additional observations from a re-analysis of the deposited data

How the results depend on the processing

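A combination of a member and an alternative setting was counted as kept if it stayed on its side of the threshold. A change of sign counted against it only where the main fit or the alternative made a call. Cdc45 in PGCs against control, for example, ranged from -0.80 to 0.21 and counted as kept in all 20. By that count 791 of 880 were kept in Max knockdown against control, 738 of 800 in PGCs against control and 743 of 800 in PGCs against Max knockdown cells. Normexp on median signals, disturbed by 14 spots darker than their local background, left 0 rises and 0 falls among members, a member median of -0.30 and 882 calls over all genes in Max knockdown cells. It left 2 rises, 7 falls and 6012 calls in PGCs against control, and 4 rises, 5 falls, a median of 0.25 and 7189 calls in PGCs against Max knockdown cells. Pola2 turned to 0.13 in Max knockdown cells there, and Rfc5 to 0.0003 in PGCs against Max knockdown cells. Without those spots, a setting added after seeing the data, Max knockdown cells had 3 rises and 7 falls, and the median in PGCs against Max knockdown cells was 0.028.

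Spike-in scaling left 0 rises, 0 falls and 1001 calls over all genes in Max knockdown cells. With slide as a block, also added after seeing the data, it left 2 rises and 4 falls. In PGCs it left 0 rises against control (median -0.97, 8622 calls) and 0 rises against Max knockdown cells (median -0.86, 8255 calls). Among members called in the main fit, it turned Cdc7 (-0.19), Gins3 (-0.59), Rfc3 (-0.56), Rfc4 (-0.39), Pola1 (-0.76), Pole (-0.086), Prim1 (-0.51) and Fen1 (-0.38) against control. Against Max knockdown cells it turned the called members Gins1 (-0.57), Gins3 (-0.48), Rfc1 (-0.63), Rfc3 (-0.21), Rfc4 (-0.45), Rpa2 (-0.10), Pole (-0.56), Prim1 (-0.67) and Rrm1 (-0.56). Members above 0 without a call turned under 0 as well in both comparisons. Rises made up 71.2% of calls over all genes in Max knockdown cells with this scaling, against 45.3% with 75th percentile scaling, 63.8% with normexp and 49.9% with spike-in scaling and a slide block. In PGCs against control 1160 of 8622 calls were rises with it, against 8837 of 15451 (57.2%) with percentile scaling, and against Max knockdown cells 12.2% were, against 58.8%. Quantile normalization gave 5 rises in Max knockdown cells, a median of -0.14 in PGCs against control, and 6 rises, a median of -0.088 and Rpa1 at -0.23 in PGCs against Max knockdown cells. Apart from the spots named, the cause of these shifts was not tested.

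In Max knockdown cells, no filter gave 3 falls, a filter on all 9 arrays 4 rises, the mean of a gene's probes 1 rise and a slide block 4 rises. The replicate block gave 1 rise and 2 falls; no other array has the number of Max knockdown 4, and only PGC 3 shares that of control 3. Deviations from the group mean correlated at 0.372 and 0.393 in same-numbered ES cell arrays, at -0.066 and -0.027 in ES cell arrays of slide 1 with different numbers, at 0.508 between Max knockdown 4 and control 3, and at -0.031 to 0.025 in same-numbered PGC and ES cell arrays. The ES cell arrays thus deviated in pairs, a hint from the data that the labels do not give. A replicate block with Max knockdown 4 and control 3 as a pair was added after seeing the data. It gave 4 rises and 11 falls in Max knockdown cells and kept all 10 calls, with 10728 calls over all genes against 8205.

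Leaving out 1 array gave 2 to 4 rises and 3 to 9 falls in Max knockdown cells (median -0.12 to -0.02, 6355 to 8303 calls over all genes). In PGCs it gave 9 to 11 rises and 15 to 16 falls against control (median -0.07 to 0.01, 14559 to 15439 calls), and 11 to 13 rises and 13 to 15 falls against Max knockdown cells (median 0.06 to 0.10, 14809 to 15572 calls). In Max knockdown cells, calls ended for Rfc3 (-0.44 to -0.33), Pola2 (-0.56 to -0.44), Pold1 (-0.34 to -0.23), Rrm1 (-0.39 to -0.25) and Rrm2 (-0.46 to -0.34) without Max knockdown 1, and for Rfc1 (-0.37 to -0.28), Pold1 and Rrm2 without Max knockdown 2. Without Max knockdown 4, Rfc3, Rrm1 and Rrm2 were lost, without control 1 Rrm2, without control 2 Rfc3, Pold1, Rrm1 and Rrm2, without control 3 Rfc1, Rfc3, Pola2, Pold1 and Rrm2, and without PGC 3 Rfc3 and Rrm2. In PGCs against control, Gmnn (-0.53 to -0.28) was lost without PGC 1, PGC 3 or control 2, Gins3 (0.30 to 0.45) without PGC 2, PGC 3, control 1 or control 3, and Pola1 (0.17 to 0.24) without any array other than PGC 2 and control 2. Against Max knockdown cells, Rfc5 (-0.39 to -0.25) was lost without Max knockdown 4, PGC 1 or PGC 3, and Prim1 (0.22 to 0.34) without Max knockdown 1, Max knockdown 2 or PGC 2.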
